A study of Mus musculus with 6 samples.

Results

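MHC class II antigen presentation was followed here through 10 genes in FLT3L-derived cDC1 (cDC1s FL), the cross-presenting conventional dendritic cells, grown from bone marrow with or without a conditional deletion of the AP-1 factors c-Jun and JunB. The members were picked by name, not by a threshold: the genes of the classical class II chains H2-Aa, H2-Ab1 and H2-Eb1, the peptide editor genes H2-DMa, H2-DMb1 and H2-DMb2, its inhibitor genes H2-Oa and H2-Ob, the invariant chain gene Cd74, and Ciita, the gene of the class II transactivator. They were found by Ensembl identifier among the 54532 genes listed, and all 10 were among the 12894 genes with enough reads to be tested. RNA-seq counts came from 6 libraries. The 3 control libraries (WT 1, 2 and 3) carried c-Jun/JunB fl/fl, with loxP sites around both genes and no Cre in the label. The 3 others (KO 1, 2 and 3) were c-Jun/JunB Δ/Δ Itgax-Cre, in which the same floxed alleles are deleted by Cre expressed from the Itgax (CD11c) promoter, and the labels describe them by the floxed alleles and the Cre. All cultures received 80 ng/mL FLT3L for 8 days, and cDC1s FL were then sorted as CD24+ CD11c+ cells without B220, CD115 or CD172a. Class II proteins (I-A/I-E) were no part of this sort. The mice were of a mixed 129Sv and C57BL/6 background, and the methods give an age range for the mice of the study as a whole, not for these cultures. The Cre acts in every CD11c+ cell and only once CD11c is made, so any deletion could take place only during the development of these cells. Nothing in the labels says whether the 3 libraries of a genotype came from separate mice or cultures. The study's legend for plots of these RNA-seq samples describes their dots as individual mice. The p-values measure the spread between these libraries.

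Class II molecules are αβ dimers that show peptides from taken-up protein to CD4+ T cells. The dimers are built in the endoplasmic reticulum around the invariant chain (CD74), which blocks the groove and carries them to endosomes. There, cathepsins cut the invariant chain down to a peptide called CLIP, H2-DM exchanges CLIP for other peptides, and H2-DO, made of H2-Oa and H2-Ob chains, holds H2-DM back. Nearly all these genes depend on CIITA, a coactivator that does not bind DNA itself and sits on a complex of RFX, CREB and NF-Y factors at the X and Y boxes before each gene. In mice of the H-2b haplotype, such as C57BL/6, the Eα chain gene is defective, so that H2-Eb1 is transcribed but no I-E dimer reaches the surface. cDC1 are best known for presentation on class I, and carry class II as well.

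The libraries held 21693217 to 26788296 reads on genes, 79.1 to 79.7% of all reads tallied. Values are given as CPM, reads relative to TMM-scaled library size, with the SD over 3 libraries. The test between genotypes was the quasi-likelihood F test of edgeR, and adjusted p-values are those of Benjamini and Hochberg over all 12894 genes tested. The deleted genes had lower means in KO libraries without passing the test, with a log2 fold change of −0.29 for Jun (edgeR adjusted p = 0.345) and −1.02 for Junb (edgeR adjusted p = 0.0729). Junb passed with DESeq2's Wald test (adjusted p = 0.000119) and, by edgeR, with no filter on low counts (0.0161), with the replicate number as a block (0.0370) and without KO 1 (0.0359). Jun groups overlapped, and Junb ran from 274 to 413 CPM in WT and from 110.4 to 212 CPM in KO libraries. The sources used here do not say which part of either gene the Cre removes, so these reads do not measure the share of deleted cells. The paper reports deletion by RT-qPCR in cDC1 sorted from spleen and lymph nodes. It also measured both genes by RT-qPCR in cDC1s FL. Itgax, whose promoter drives the Cre, fell by 1.22 on the log2 scale (edgeR adjusted p = 0.0147, and 0.0505 to 0.0781 without 1 of the WT libraries). Of 12 cDC1 marker genes, 5 fell (Xcr1, Tlr3, Snx22, Rab7b and Ifi205) and none rose, where 1.85% of all genes tested were lower and 2.03% higher by the same test. These 5 calls were lost without WT 1, and their highest adjusted p over the alternatives lay between 0.0570 and 0.149. Of the 12 log2 fold changes, 8 were negative and 4 positive. Throughout, 6 of the genes lay lower in KO libraries, as 12.3% of all genes did. Cadm1 lay higher in every KO than in every WT library, as 13.7% of all genes did (log2 fold change 0.32, edgeR adjusted p = 0.0615). Clec9a, Batf3 and Itgae had groups that overlapped, with a log2 fold change of 1.10 for Itgae (edgeR adjusted p = 0.343). Xcr1, the chemokine receptor that defines cDC1, was present in every library, at 421 to 475 CPM in WT and 122 to 201 CPM in KO libraries.

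The class II genes lie together on chromosome 17. The stretch of DNA just before each RefSeq start is shown because these genes share a regulator and its binding letters can be read there. RefSeq promoters (GRCm38.p6, 250 bases before and 50 after the start) were read for 7 members, with none printed for H2-Ab1, Ciita and Cd74. The 4 stretches below run 5′ to 3′ on the gene's strand and end at the Y box. Capitals mark the Y box ATTGG and the letters GNAAC (N is any base) that stand before it, where the X box is known to lie.
H2-Oa: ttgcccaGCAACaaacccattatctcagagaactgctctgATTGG
H2-Ob: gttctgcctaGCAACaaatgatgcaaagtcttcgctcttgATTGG
H2-Aa: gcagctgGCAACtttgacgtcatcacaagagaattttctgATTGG
H2-Eb1: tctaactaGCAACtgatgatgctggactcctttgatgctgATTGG
The stretches lie at chr17:34092296-34092340 (H2-Oa, + strand), chr17:34238808-34238852 (H2-Ob, + strand), chr17:34287867-34287911 (H2-Aa, − strand) and chr17:34305768-34305812 (H2-Eb1, + strand). The Y box begins 43 bases before the start in H2-Oa, 57 in H2-Ob, 48 in H2-Aa and 59 in H2-Eb1, and GNAAC begins 30 to 33 bases before the Y box. Of all 32851 promoters in the table, 37.4% hold ATTGG on either strand, and 1.40% hold GNAAC beginning 24 to 40 bases before ATTGG on the gene's strand, a spacing that was set after these sequences had been read. It was found in 5 of the members with a promoter, the 4 above and H2-DMb1.

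H2-DMb1 and H2-DMb2 are neighbouring copies of one gene, and their promoters are set side by side to show where the copies differ. Each stretch ends 7 bases before the Y box, and capitals mark GNAAC and the AP-1 letters TGANTCA, which c-Jun and JunB dimers are known to bind.
H2-DMb1: cctaGTAACtgatgatgctaggcTGATTCA
H2-DMb2: cctattaaccgatgatgctaggctaagtca
They lie at chr17:34153093-34153122 and chr17:34145122-34145151, both on the + strand of GRCm38.p6. Both stretches lie before the RefSeq start. They also lie inside the gene spans given below, which come from GENCODE M21 and begin farther upstream, at 34153072 for H2-DMb1 and 34143307 for H2-DMb2. Over the 30 bases, 26 are identical and 4 differ, G5T, T10C, G25A and T27G, counted from 1 at the 5′ end with the base of H2-DMb1 first. The H2-DMb2 copy has neither capitalised motif. TGANTCA is in 7.81% of all promoters on either strand, and among the members in H2-DMb1 and in 1 of the 2 H2-DMa entries. TGACGT, a CREB-like sequence, is in 7.51% of all promoters and among the members in H2-Aa. GAAANNGAA and GGAANNGAA, letters like those bound by IRF factors alone and by IRF with PU.1, are in 8.56% and 8.24% of all promoters and in no member with a promoter. A match describes letters in this window and is no evidence of binding.

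The classical class II genes were among the most abundant genes of these cells. In WT libraries the 10 members held 3.59, 3.64 and 3.83% of all reads on genes, and in KO libraries 3.83, 4.29 and 4.29%. Nearly all of this came from H2-Aa, H2-Ab1, H2-Eb1 and Cd74, which held 3.29 to 3.51% in WT and 3.46 to 3.91% in KO libraries, so the groups overlapped for these 4. To compare levels between genes, reads were divided by the length of all merged exons and scaled to a sum of 1000000 per library, a per-length level. Cd74 was then the most abundant gene of all in WT libraries at 24620.4 ± 1098, followed among the members by H2-Eb1 at 10578 ± 477 (rank 6), H2-Ab1 at 9345 ± 89.3 (rank 8) and H2-Aa at 7240.2 ± 305 (rank 11). The DM genes lay well below these, with H2-DMb1 at 1142 ± 27.6 and H2-DMa at 678 ± 32.8. Ciita reached 377 ± 7.11, H2-Ob 331 ± 25.1, H2-Oa 250.3 ± 38.5 and H2-DMb2 175 ± 36.3. In WT libraries no neighbours in this order overlapped. In KO libraries the order of the means was the same, and Ciita overlapped with H2-Ob, H2-Ob with H2-Oa, and H2-Oa with H2-DMb2, so the ranges of these neighbours were not apart over libraries. Within each of the 3 KO libraries Ciita was nevertheless above H2-Ob, H2-Ob above H2-Oa and H2-Oa above H2-DMb2.

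The order of several genes depends on the length used. With the length of the principal transcript, a choice made after the data had been seen, H2-Aa (1128 bases against 3798 of merged exons) came to 15859.7 ± 682, H2-Ab1 to 12881 ± 127 and H2-Eb1 to 8016 ± 367 in WT libraries, the reverse of the order above. Cd74 then stood at 19073 ± 867 (rank 2). It also put H2-DMa (917 ± 45.0) above H2-DMb1 (890 ± 21.4) and H2-Ob (434 ± 33.3) above Ciita (389 ± 7.60) in WT libraries, again the reverse. No order among the 3 chains, between H2-DMa and H2-DMb1, or between Ciita and H2-Ob is therefore read from these data.

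**Figure D1:**
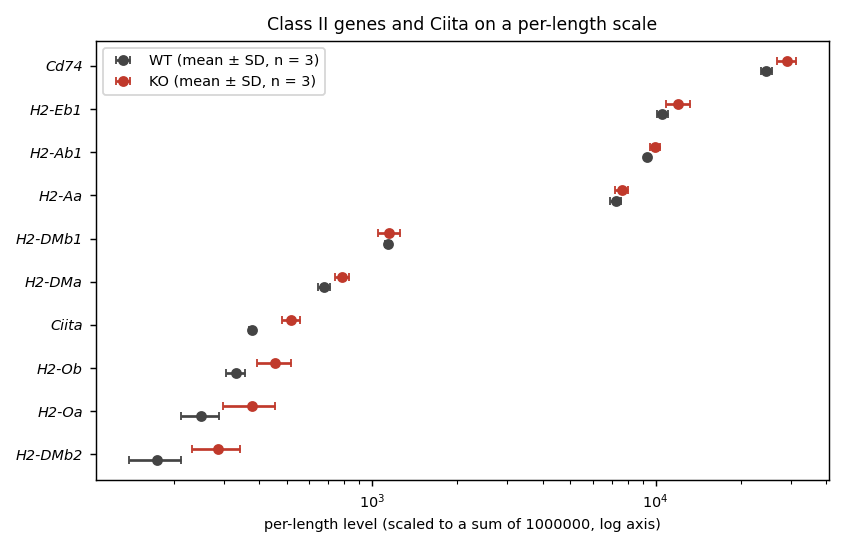
Per-length levels of the 10 genes (x axis, scaled to the same sum in each library, from merged exon lengths, log scale) as mean ± SD over 3 WT (grey) and 3 KO (red) libraries. Cd74 and the 3 chain genes have means of 7240.2 or more in both genotypes and the other 6 genes of 1152 or less.

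Between genotypes, Ciita rose, and the genes of the classical chains did not pass the test. Of the 10 members, 1 was higher in KO at an adjusted p under 0.05 (Ciita) and 0 were lower, where 2.03% of all genes tested were higher and 1.85% lower by the same test (edgeR). None reached the limits of the study, which add a log2 fold change of 1 or more up or down to that p, and which 1.86% of all genes reached. At an unadjusted p under 0.05 there were 6 members, against 19.4% of all genes. All 10 log2 fold changes were above 0, with a median of 0.22, where 50.3% of all genes tested were above 0 and their median was 0.00180. Every KO library lay above every WT library for 6 members (H2-DMa, H2-DMb2, H2-Oa, H2-Ob, Cd74 and Ciita), as it did for 13.7% of all genes, and for none of the members did it lie below, as it did for 12.3%. By the Wald test of DESeq2 4 members were higher, Ciita, H2-DMb2, H2-Oa and H2-Ob, where 4.7% of all genes were. In bulk RNA, more cells with a transcript and more transcript per cell cannot be told apart.

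Ciita, the transactivator gene (ENSMUSG00000022504.10, GRCm38 chr16:10480059-10528418), had 1065, 1039 and 1104.5 CPM in WT 1, 2 and 3 and 1395, 1422 and 1595.5 CPM in KO 1, 2 and 3. All 3 KO libraries were higher than all WT libraries, and the SD within WT libraries was small. The mean rose from 1069.5 ± 33.0 to 1471 ± 109 CPM, a fold change of 1.38 with a 95% interval of 1.23 to 1.53 (log2 fold change 0.46, standard error (SE) 0.07, adjusted p = 0.0159 by edgeR). By its p-value it was gene 181 of 12894. The call was lost without WT 1 (adjusted p = 0.110), without WT 2 (0.107) and without WT 3 (0.0581), with a log2 fold change of 0.40 to 0.50 over all leave-one-out fits. Over all 14 alternatives the edgeR, limma or DESeq2 adjusted p ran from 2.64e-07 to 0.110. Its span overlaps that of Dexi on the other strand, which held 1239 reads over all libraries against 182743 on Ciita.

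The genes of the classical chains differed little. H2-Aa, the α chain of I-A (ENSMUSG00000036594.14, chr17:34282744-34287823), had 7854, 8092 and 8585 CPM in WT 1, 2 and 3 and 7988, 8751 and 8980.2 CPM in KO 1, 2 and 3. The genotypes overlapped, with a fold change of 1.05 and a 95% interval of 0.940 to 1.17 (log2 fold change 0.07, SE 0.07, edgeR adjusted p = 0.620). H2-Ab1, the β chain of I-A (ENSMUSG00000073421.5, chr17:34257689-34269419), had 7125, 7093 and 7188 CPM in WT and 7159.9, 7819 and 7809.5 CPM in KO libraries. KO 1 lay within the WT range and the other two above it. The fold change of H2-Ab1 was 1.06 with a 95% interval of 0.970 to 1.17 (log2 fold change 0.09, SE 0.06, edgeR adjusted p = 0.431). A rise of either I-A chain gene by more than 1.17-fold therefore lies outside its interval. H2-Eb1, the β chain of I-E (ENSMUSG00000060586.10, chr17:34305867-34316674), had 6019, 5830.2 and 6502 CPM in WT and 6094, 7544 and 7256 CPM in KO libraries, again with KO 1 inside the WT range. Its fold change was 1.14 with a 95% interval of 0.981 to 1.32 (log2 fold change 0.19, SE 0.09, edgeR adjusted p = 0.318). The antisense gene Gm20513 in its span held 160 reads over all libraries.

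Cd74, the invariant chain gene (ENSMUSG00000024610.14, chr18:60803848-60812652), was the most abundant gene by reads in WT libraries, at 11772, 12178 and 12927 CPM in WT 1, 2 and 3 and 13038, 15489.7 and 14935 CPM in KO 1, 2 and 3. The groups did not overlap, and the gap between WT 3 and KO 1 was narrow. The fold change was 1.18 with a 95% interval of 1.03 to 1.34, which did not pass the test (log2 fold change 0.24, SE 0.08, edgeR adjusted p = 0.166). The microRNA gene Mir5107 lies within Cd74 on the same strand and held 1132 reads over all libraries against 1930815 on Cd74.

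None of the 3 genes of the H2-DM editor passed the test, and differences between them were not tested. H2-DMa, the α chain (ENSMUSG00000037649.9, chr17:34119541-34139101), had 676, 668 and 742 CPM in WT 1, 2 and 3 and 763, 801 and 854 CPM in KO 1, 2 and 3, so that the groups did not overlap (log2 fold change 0.21, SE 0.07, edgeR adjusted p = 0.146). Its span overlaps that of Brd2 on the other strand, which held 63308 reads over all libraries against 108406 on H2-DMa, and reads where the spans meet depend on the strand setting, which the sources used here do not state. H2-DMb1, the more abundant β chain gene (ENSMUSG00000079547.3, chr17:34153072-34160230), had 573, 576 and 564 CPM in WT and 595, 522 and 608 CPM in KO libraries. Its KO libraries lay on both sides of the WT range, with a fold change of 1.01 and a 95% interval of 0.900 to 1.13 (log2 fold change 0.01, SE 0.07, edgeR adjusted p = 0.954). H2-DMb2, the less abundant β chain gene (ENSMUSG00000037548.14, chr17:34143307-34151555), had 74.1, 87.0 and 112 CPM in WT and 114.5, 171 and 162 CPM in KO libraries. The groups did not overlap, though WT 3 and KO 1 were almost equal. Its fold change was 1.64, the largest of the 10, with a 95% interval of 1.19 to 2.25 (log2 fold change 0.71, SE 0.19, edgeR adjusted p = 0.0987).

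H2-DMb2 and H2-DMb1 share much of their sequence, so their reads are uncertain. Their principal transcripts (1424 and 1404 bases) are 94.4% identical over 1255 aligned bases, and 254 of the 1350 windows of 75 bases in H2-DMb2, the read length, are also in H2-DMb1. A read from such a window maps to both genes unless its mate tells them apart, and how many pairs went uncounted for this was not measured. H2-DMb2 held 11.5, 13.1 and 16.6% of the reads of the pair in WT 1, 2 and 3 and 16.1, 24.7 and 21.1% in KO 1, 2 and 3, with overlap between WT 3 and KO 1. With the counts of both genes added before the fit, the log2 fold change of the pair was 0.13 (edgeR adjusted p = 0.286). The 4 base differences in the promoters printed above include those that remove both capitalised motifs in the H2-DMb2 copy, and no test links them to the reads.

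Both genes of H2-DO, the inhibitor of H2-DM, had KO libraries above all WT libraries without passing the test. H2-Oa, the α chain (ENSMUSG00000024334.8, chr17:34092340-34095234), had 92.6, 97.6 and 124 CPM in WT 1, 2 and 3 and 131, 148 and 194 CPM in KO 1, 2 and 3. The values of H2-Oa spread widely within KO libraries, and its fold change was 1.50 with a 95% interval of 1.14 to 1.98 (log2 fold change 0.59, SE 0.17, edgeR adjusted p = 0.113). H2-Ob, the β chain (ENSMUSG00000041538.15, chr17:34238903-34254414), had 502, 506 and 582 CPM in WT and 638, 709.6 and 839 CPM in KO libraries. It came nearest to a call after Ciita, with a fold change of 1.37 and a 95% interval of 1.15 to 1.65 (log2 fold change 0.46, SE 0.11, edgeR adjusted p = 0.0720). Over the 14 alternatives its adjusted p ran from 0.00222 to 0.285.

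**Figure D2:**
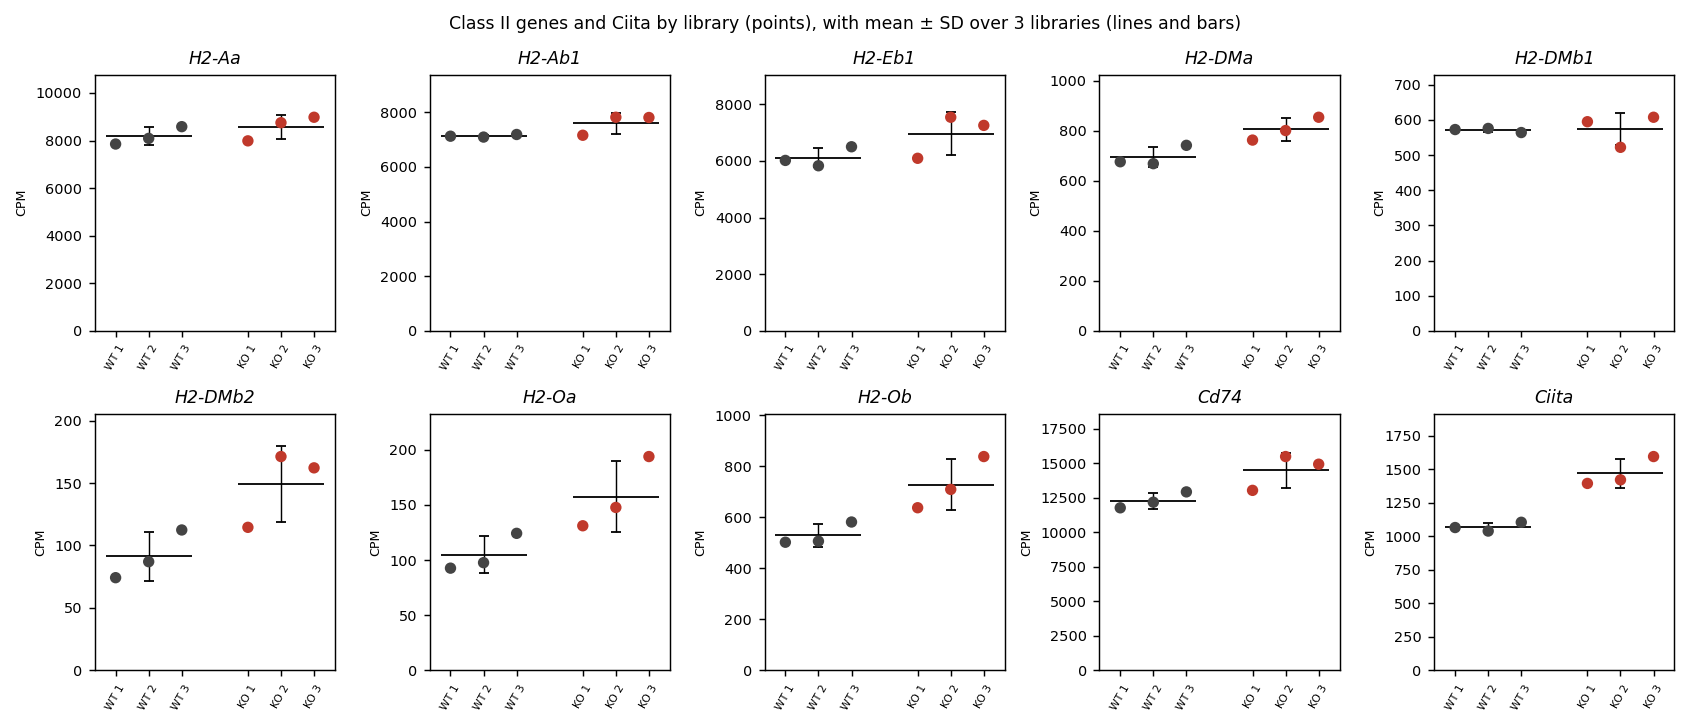
CPM of each of the 10 genes by library (y axes from 0), with WT libraries in grey, KO libraries in red, and the mean ± SD over 3 libraries as lines and bars. Ciita is the gene whose groups stand furthest apart for their spread, at 1039 to 1104.5 CPM against 1395 to 1595.5 CPM, while H2-Aa, H2-Ab1, H2-Eb1 and H2-DMb1 overlap.

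Ratios within a library do not depend on library size and show how the members moved against each other. They are descriptions with no test. The ratio of the I-A chains, H2-Aa to H2-Ab1, was the same within its spread in both genotypes, at 0.20 ± 0.06 in WT and 0.17 ± 0.02 in KO libraries on the log2 scale. H2-DMa to the sum of H2-DMb1 and H2-DMb2 (0.07 ± 0.06 against 0.15 ± 0.05) and H2-Oa to H2-Ob (−2.35 ± 0.11 against −2.22 ± 0.09) also overlapped. Inhibitor to editor, the sum of H2-Oa and H2-Ob over that of the 3 H2-DM genes, did not overlap, with CPM ratios of 0.450, 0.454 and 0.498 in WT 1, 2 and 3 and 0.522, 0.574 and 0.636 in KO 1, 2 and 3. Invariant chain to β chain, Cd74 over H2-Ab1, did not overlap either, at 1.65, 1.72 and 1.80 in WT and 1.82, 1.98 and 1.91 in KO libraries. H2-Ab1 over Ciita, the level of a target per level of its transactivator, was 6.69, 6.83 and 6.51 in WT and 5.13, 5.50 and 4.90 in KO libraries. On the log2 scale this last ratio went from 2.74 ± 0.03 to 2.37 ± 0.08, the widest gap for its spread among the 8 ratios drawn. It was not among the ratios planned. It sets H2-Ab1 (log2 fold change 0.09) against Ciita (0.46), so its gap mostly restates the rise of Ciita.

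**Figure D3:**
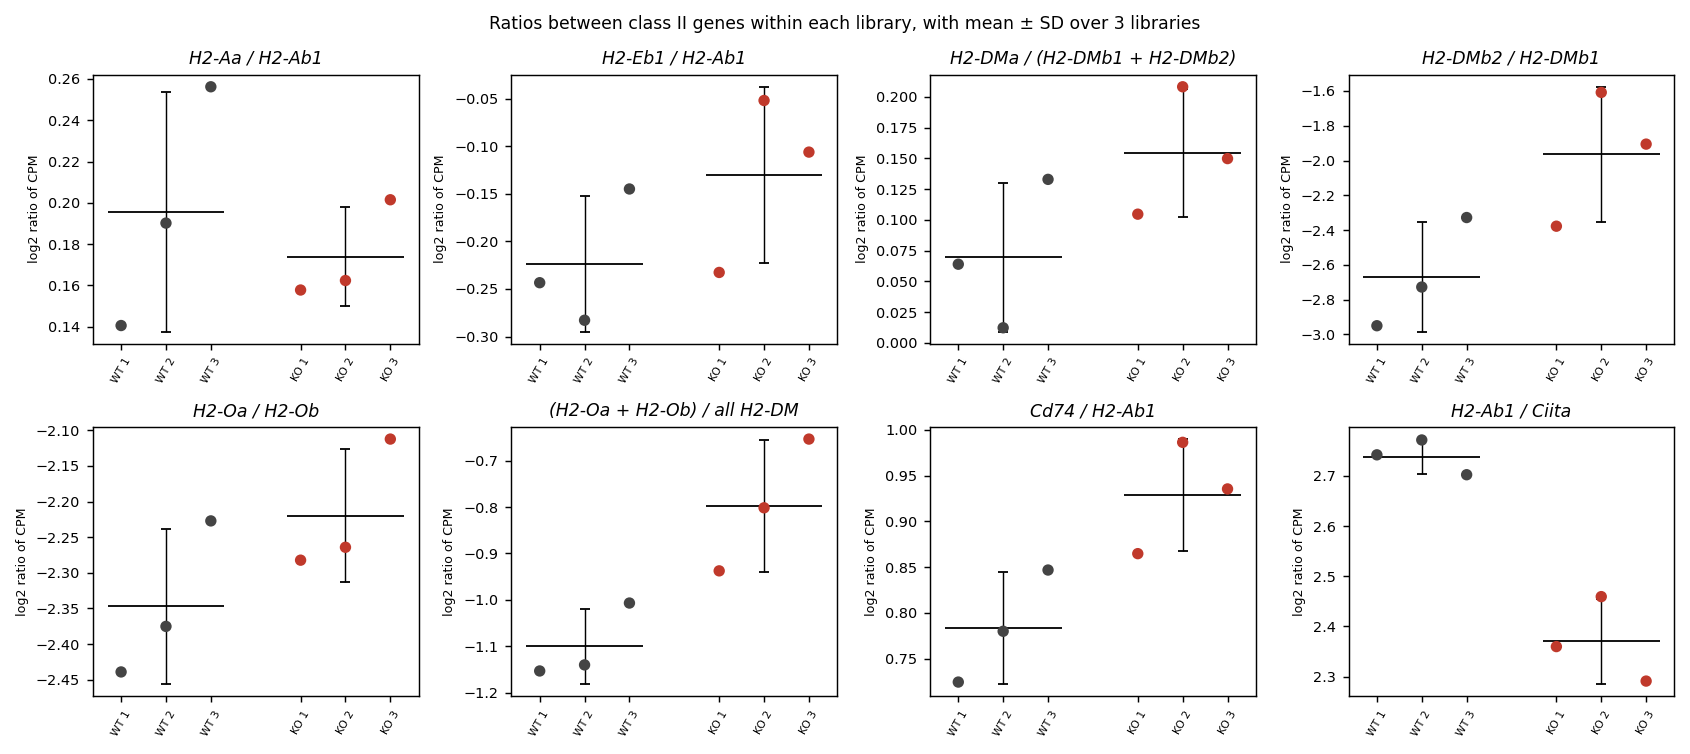
Log2 ratios of CPM between members in each library, with WT in grey, KO in red, and the mean ± SD over 3 libraries. The genotypes are apart for inhibitor to editor (−1.10 ± 0.08 against −0.80 ± 0.14), Cd74 to H2-Ab1 (0.78 ± 0.06 against 0.93 ± 0.06) and H2-Ab1 to Ciita, and overlap for the other 5.

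The members differed in how near their values lay to those of Ciita over the 6 libraries. As a measure of likeness, log2 CPM was centred on its mean over 6 libraries. The root mean square difference from Ciita was then taken, so that 0 means the same pattern at the same size. Values were not scaled, so a gene that changed more or less than Ciita lies farther away. H2-Ob was nearest to Ciita at 0.0754, followed by H2-DMa at 0.127, Cd74 at 0.136, H2-Eb1 at 0.163 and H2-Oa at 0.166. H2-Ab1 (0.192), H2-Aa (0.201), H2-DMb1 (0.237) and H2-DMb2 (0.258) were farther. H2-DMb2 changed more than Ciita (log2 fold change 0.71 against 0.46) and H2-DMb1 less (0.01). The genes of the whole table nearest to Ciita were no class II genes, namely Pcyt1a at 0.0377, Slc46a3 at 0.0437, Rbm4b at 0.0482, Camkk2 at 0.0504 and Trp53inp1 at 0.0517. Pcyt1a, an enzyme of phosphatidylcholine synthesis, had 66.2 to 73.1 CPM in WT and 85.7 to 99.0 CPM in KO libraries. With 6 libraries in 2 genotypes, this measure is a description and says nothing of shared control.

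None of the factors through which CIITA acts passed the test. Of the 7 RFX, NF-Y and CREB genes tested, 0 were called, where 2.03% of all genes tested were higher and 1.85% lower. Their median log2 fold change was −0.04. Rfx5 (0.17, edgeR adjusted p = 0.266), Rfxank (0.48, 0.128) and Rfxap (−0.10, 0.644) encode the RFX complex that binds the X box. Rfxank had 12.03, 14.98 and 16.6 CPM in WT 1, 2 and 3 and 18.5, 22.1 and 20.4 CPM in KO 1, 2 and 3, without overlap. Of the NF-Y genes, Nfya and Nfyc lay near 0 (0.07 and −0.04 on the log2 scale), and Nfyb had 31.5 to 37.8 CPM in WT and 23.7 to 29.9 CPM in KO libraries (log2 fold change −0.39, edgeR adjusted p = 0.124). Creb1 had 125 to 136 CPM in WT and 114 to 121 CPM in KO libraries (log2 fold change −0.15, edgeR adjusted p = 0.227).

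Of the 13 genes known to act upstream of Ciita that are reported here, 0 passed the test in either direction. Over all genes tested, 2.03% were higher and 1.85% lower, so a count of 0 is near those shares. Irf8 and Spi1 (PU.1), which drive the myeloid Ciita promoter, overlapped between genotypes. Irf8 had 2653 to 2773 CPM in WT and 2729 to 2879 CPM in KO libraries (log2 fold change 0.04, edgeR adjusted p = 0.687), and Spi1 a log2 fold change of 0.10 (edgeR adjusted p = 0.614). Irf4, a factor of cDC2, had 27.4, 32.1 and 43.9 CPM in WT and 55.6, 71.9 and 120.1 CPM in KO libraries (log2 fold change 1.26, SE 0.30, edgeR adjusted p = 0.0699). Irf4 passed with DESeq2's Wald test (adjusted p = 7.80e-05) and, by edgeR, with no filter on low counts (0.0152), with the replicate number as a block (0.00951) and without KO 1 (0.0150). Prdm1 (BLIMP-1), known as a repressor of Ciita, had a log2 fold change of 0.86 from a low level (edgeR adjusted p = 0.165). The median of the 13 genes was 0.10.

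Of 10 genes for endosomal proteases and the thiol reductase GILT, 1 rose and 0 fell. By the same test, 2.03% of all genes rose and 1.85% fell. Ctse, the gene of cathepsin E, an aspartic protease of endosomes, had 21.7, 19.8 and 25.1 CPM in WT 1, 2 and 3 and 199.6, 173 and 216.5 CPM in KO 1, 2 and 3. Every KO library was far above every WT library, with a fold change of 8.85 (log2 fold change 3.15, SE 0.12, edgeR adjusted p = 6.27e-05). It was called under all 14 alternatives, with a highest adjusted p of 0.00235. Ctss, the gene of cathepsin S, which makes the last cuts in the invariant chain of dendritic cells, overlapped between genotypes, at 683 to 761 CPM in WT and 679 to 804 CPM in KO libraries (log2 fold change 0.05, edgeR adjusted p = 0.762). Ifi30 (GILT) had 76.9 to 86.6 CPM in WT and 108.3 to 195.5 CPM in KO libraries (log2 fold change 0.80, edgeR adjusted p = 0.0825). Ifi30 passed with DESeq2's Wald test (adjusted p = 0.00110). By edgeR it passed with no filter on low counts (0.0248), without KO 1 (0.0140) and without KO 2 (0.0353), the library with its highest value. Its highest adjusted p over the 14 alternatives was 0.292 (edgeR). The median of the 10 genes was 0.19, with 7 log2 fold changes positive and 3 negative. Throughout, 4 of the genes lay higher in KO libraries (Ctsb, Ctse, Ctsz and Ifi30), as 13.7% of all genes did. Ctsd and Ctsc lay lower throughout (log2 fold changes −0.58 and −0.26), as 12.3% of all genes did. Of 5 genes for the turnover of class II and the invariant chain, 0 passed the test in either direction, a count near those shares of all genes. Marchf1, the ubiquitin ligase that removes class II from the surface, had 252 to 266 CPM in WT and 276 to 296 CPM in KO libraries (log2 fold change 0.15, edgeR adjusted p = 0.202), and Cd83, which counters it, had a log2 fold change of −0.06 (edgeR adjusted p = 0.914).

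**Figure D4:**
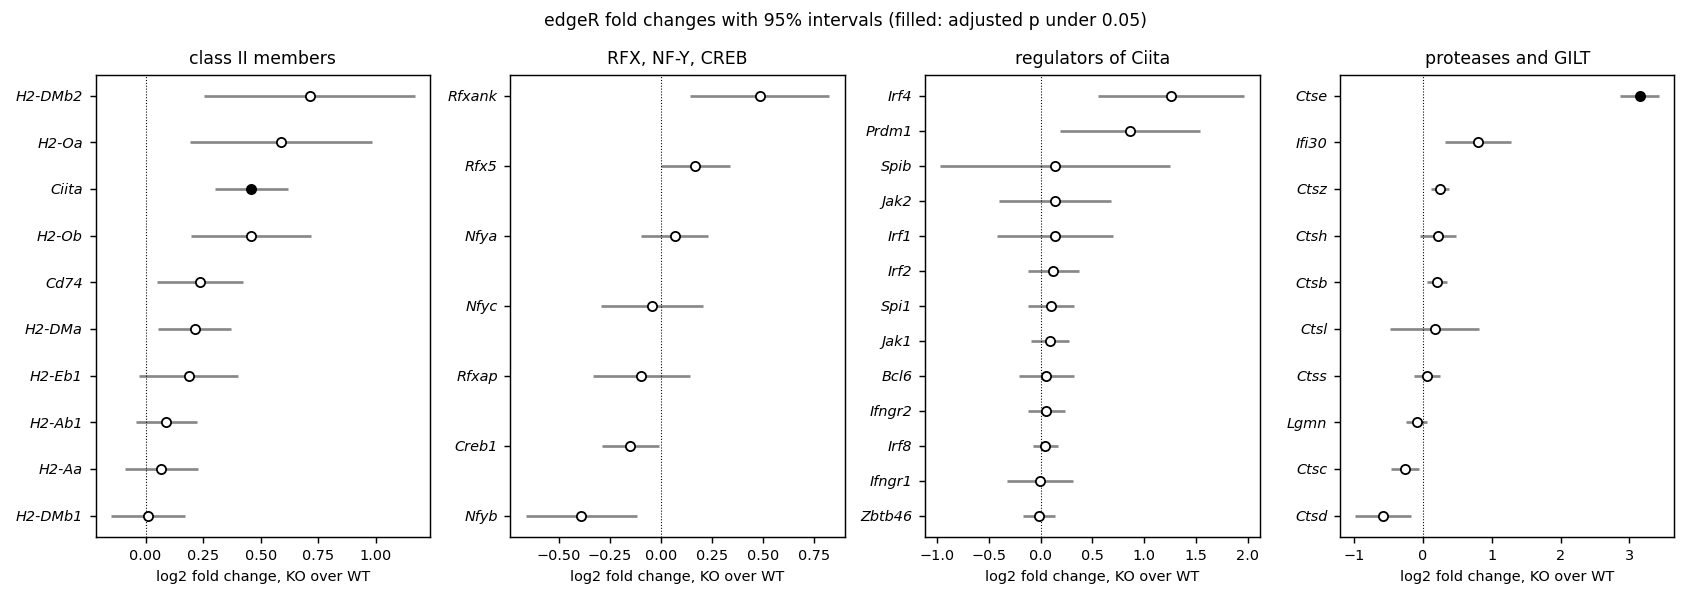
Log2 fold changes of KO over WT libraries with 95% intervals for the 10 members, the promoter factors, the genes upstream of Ciita, and the proteases with GILT, filled where edgeR's adjusted p was under 0.05. Ciita and Ctse are filled, both on the higher side.

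Class I presentation stood beside this without a call. Of its 14 genes, 0 passed the test in either direction, where 2.03% of all genes tested were higher and 1.85% lower. Their median log2 fold change was −0.05, against 0.22 for the class II members. Psmb9, Psmb10 and Erap1 lay lower in every KO than in every WT library, as 12.3% of all genes did, and none lay higher throughout. The difference between the class I and class II lists was not tested.

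Some markers of cDC2, and single markers of monocytes and macrophages and of pDC, rose in KO libraries. The part of markers of other cells in the class II values was not tested. Of 10 cDC2 genes, 3 rose (Klf4, Cd209a and Cd4), 0 fell and 6 lay higher in every KO than in every WT library, where 2.03% of all genes tested rose and 13.7% lay higher throughout. Their summed level was 208.5, 224.6 and 314.9 CPM in WT 1, 2 and 3 and 491.9, 574.6 and 685.9 CPM in KO 1, 2 and 3, with no marker at 0. Cd209a was called under all 14 alternatives, while Klf4 and Cd4 were lost without single libraries, with a highest adjusted p of 0.166 and 0.173. Sirpa, which encodes the CD172a that the sort excluded, had 44.7 to 60.5 CPM in WT and 40.9 to 46.8 CPM in KO libraries. Of 7 tested monocyte and macrophage genes 1 rose (Adgre1), with sums of 31.6 to 42.8 CPM against 47.8 to 69.8 CPM. Most of each sum was Adgre1, at 20.98 to 28.46 CPM in WT and 38.34 to 56.04 CPM in KO libraries. The other tested genes of this list overlapped between genotypes. Of its 7 log2 fold changes, 3 were positive and 4 negative. The Adgre1 call was lost without WT 1 (edgeR adjusted p = 0.143), WT 2 (0.148), WT 3 (0.0756) or KO 3 (0.0774). Of 7 tested pDC genes 1 rose (Ccr9), with sums of 246 to 265 CPM against 266 to 318 CPM. These sums were almost equal in WT 1 (265.3 CPM) and KO 1 (265.8 CPM). Throughout, 2 pDC genes lay higher in KO libraries and 1, Bst2, lower. Bst2 had 89.1 to 109.2 CPM in WT and 70.6 to 79.0 CPM in KO libraries (log2 fold change −0.41, edgeR adjusted p = 0.0572). B cells, which are rich in class II and H2-DO, left 0 of 6 tested genes reported here called and sums of 28.9 to 41.8 CPM against 25.8 to 79.4 CPM, which overlapped. Cd22, a B cell lectin, had 5.01, 7.86 and 10.2 CPM in WT and 12.4, 28.04 and 43.9 CPM in KO libraries, without overlap (log2 fold change 1.87, SE 0.46, edgeR adjusted p = 0.0782). Pax5, the B cell factor, had 1.52 to 3.56 CPM in WT and 1.54 to 8.68 CPM in KO libraries (log2 fold change 0.92, edgeR adjusted p = 0.449). Ms4a1 (CD20) had 2.84 to 11.9 CPM over all libraries (log2 fold change 0.17). These 3 tested B cell genes had positive log2 fold changes. The other 3 were negative, namely Cd79a (−0.23), Cd79b (−0.03) and Fcmr (−0.34), and their groups overlapped. Neutrophil genes summed to 0.852 to 16.5 CPM over all libraries, with Ly6g and Elane at 0 reads, and T and NK cell genes to 0.649 to 1.26 CPM. Basophil and mast cell genes summed to 289 to 367 CPM in WT and 351 to 465 CPM in KO libraries, with 0 of 2 tested genes called. Nearly all of this was Kit, a receptor that other blood cells share, at 288 to 366 CPM in WT and 349.5 to 462 CPM in KO libraries, and none of the other 5 genes exceeded 5.51 CPM in any library.

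The summed level of dendritic cell maturation genes varied strongly between KO libraries. The part of these genes in the values of the members was not tested. Of 12 maturation genes 0 passed the test, where 2.03% of all genes tested were higher and 1.85% lower. Their summed level was 1151, 832 and 990 CPM in WT 1, 2 and 3 but 358, 2031 and 531 CPM in KO 1, 2 and 3. KO 2 thus stood above and KO 1 and 3 below all WT libraries. Fscn1 had 293, 183 and 236 CPM in WT and 31.8, 655 and 92.7 CPM in KO libraries, and Ccr7 had 221, 152 and 160 CPM against 26.9, 376 and 60.8 CPM. Ciita had 1422 CPM in KO 2, between 1395 CPM in KO 1 and 1595.5 CPM in KO 3. Without KO 2 its log2 fold change was 0.48 (edgeR adjusted p = 0.0184). Of the members, H2-Eb1, H2-DMb2, H2-Ab1 and Cd74 had their highest value in KO 2, and H2-DMb1 its lowest. Without KO 1, 6 members were called, where 4.53% of the 13250 genes then tested were higher. These were Ciita, H2-Ob (adjusted p = 0.0170), H2-DMb2 (0.0178), Cd74 (0.0204), H2-Oa (0.0333) and H2-Eb1 (0.0390), by edgeR.

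Of the other genes of the class II region, the second Eβ gene and the Eα gene were read. H2-Eb2 had 25.0, 17.2 and 24.9 CPM in WT 1, 2 and 3 and 4.87, 35.1 and 10.8 CPM in KO 1, 2 and 3, with the highest and the lowest values both in KO libraries (log2 fold change −0.41, 95% interval −1.88 to 1.06, edgeR adjusted p = 0.765). Like Fscn1 and Ccr7, H2-Eb2 was high in KO 2 and low in KO 1. H2-Ea-ps, the name under which the defective Eα gene is annotated, had 1 read in KO 3 and 0 reads in the other 5 libraries. For the WT libraries, a count of 0 allows up to 3 reads over the 3 libraries, or 0.0392 CPM.

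**Figure D5:**
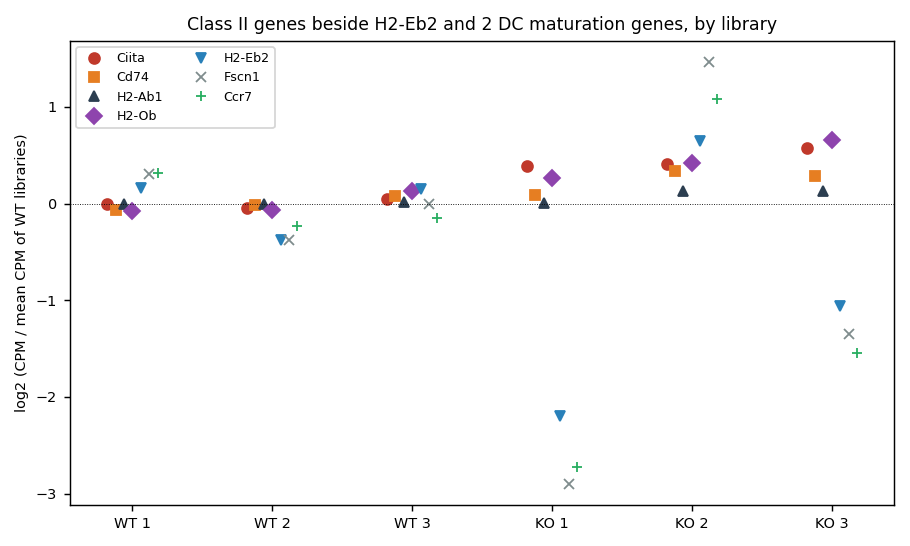
Log2 of CPM over the mean of the WT libraries for Ciita, Cd74, H2-Ab1, H2-Ob, H2-Eb2 and the maturation genes Fscn1 and Ccr7, one column of points per library. Fscn1, Ccr7 and H2-Eb2 lie below 0 in KO 1 and 3 and above 0 in KO 2, while Ciita, H2-Ob and Cd74 lie above 0 in all 3 KO libraries.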

How the data were processed

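The 10 members, the other gene lists and the tests were chosen with earlier results of these data known. According to the methods and the submitters' processing notes, the authors made poly(A) libraries with a directional kit, read them in pairs of 75 bases on a NextSeq500, aligned them to GRCm38 with STAR 2.6.1a and deposited raw read counts per gene of uniquely mapped reads. No source used here states the strand column, so reads of a gene and its antisense partner may not be told apart. Of the 54532 identifiers, 54495 were found in GENCODE M21, used for names, coordinates and lengths.

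Here STAR's tallies of reads off genes were left out, and counts were fitted with edgeR 4.0.16 (R 4.3.3) on genotype alone, with TMM factors and filterByExpr (minimum count 10, minimum total 15). Library totals of 21693217 to 26788296 set the precision, and PCR copies were not told apart. Alternatives were DESeq2's size factors, the Wald test of DESeq2 1.42.0, voom of limma 3.58.1, no filter, a stricter filter, library sizes without the members, both H2-DMb genes added, a replicate block, and each library left out. All 10 members were named, with list genes past the test, fixed regulators and the 5 genes most like Ciita. Some genes of the lists are not reported here and stayed out of the lists' counts. Genes named beyond these were chosen after their values were seen. The steps were tested on simulated counts. The authors' own fold changes were not used.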

Additional observations from a re-analysis of the deposited data

How the results depend on the processing

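Ciita was the only member called under DESeq2's size factors, limma-voom, the stricter filter, library sizes without the members, and H2-DMb1 and H2-DMb2 added. Members higher in KO numbered 4 with DESeq2's Wald test, 4 with no filter on low counts and 4 with the replicate block. Each time these were Ciita, H2-DMb2, H2-Oa and H2-Ob. Of all genes tested, 606 of 12894, 418 of 23037 and 238 of 12894 were then higher, in that order. With 1 library left out the members numbered 0 to 6 (0 without WT 1, 2 or 3, 6 without KO 1, 1 without KO 2 or 3). Of all genes, 52 of 13205, 50 of 13262 and 107 of 13332 were higher without WT 1, 2 and 3. Without KO 1, 2 and 3, 600 of 13250, 353 of 13247 and 173 of 13292 were higher. No member was lower under any alternative, and leaving out single libraries gave a median log2 fold change between 0.19 and 0.29. With the replicate block the adjusted p (edgeR) was 0.0317 for H2-DMb2, 0.0156 for H2-Oa and 0.0246 for H2-Ob. The numbers were not shown to pair the libraries: deviations of same-numbered libraries correlated across genes at 0.0910, −0.148 and 0.200, and WT 2 was most like KO 1. Only H2-DMb1 changed sign, at −0.000348 without WT 3, −0.0134 without KO 1 and −0.0320 without KO 3, in a leave-one-out range of −0.0320 to 0.0743. All genes called numbered 500 in the test reported, 1104 with DESeq2's Wald test, 762 with no filter and 417 with the replicate block. They numbered 95 without WT 1, 95 without WT 2, 201 without WT 3, 1320 without KO 1, 719 without KO 2 and 352 without KO 3. With the length of the principal transcript, a choice made after the data were seen as was the repeat of all alternatives for named genes that are no members, per-length levels moved for 9 of the 10 members. Fits without 1 library also rest on fewer libraries, and the cause of the shifts between alternatives was not tested.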
